A study of Homo sapiens with 6 samples.

Results

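Interferon-stimulated genes, the genes that a cell switches on in answer to type I interferon, were examined in HCCLM3, a human hepatocellular carcinoma (HCC) cell line. The 44 genes were listed by their symbols as a check for a lentiviral or innate response. The rule that lists them uses no measured value. All 44 were found among the 20381 genes of the table. Expression was measured by RNA-seq of poly(A) RNA in 3 libraries labelled stable *PON1* overexpression (PON1-OE) and 3 libraries labelled negative control (NC). According to the design text, the control cells received the lentivirus with an empty vector, and the PON1-OE cells received a lentivirus with the *PON1* coding sequence. *PON1* encodes paraoxonase 1, a lipoprotein-associated esterase made by the liver. Both groups had therefore met a lentiviral vector and, per the study's methods, puromycin selection, and cells without a vector were not part of the series. The design text gives medium with 15% serum and lysis at 24 h from transfection, whereas the labels and the study's methods describe stable lines and the methods give another serum content. Whether the 3 libraries of each group came from separate cultures is not stated, so that p-values measure only the spread between these libraries, which may be technical.

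Type I interferons bind a receptor made of IFNAR1 and IFNAR2, which activates the kinases JAK1 and TYK2. These phosphorylate STAT proteins, among them STAT2, which joins IRF9 in a complex that enters the nucleus and binds interferon-stimulated response elements in promoters. The products of the induced genes sense viral RNA, stop translation, degrade RNA, modify proteins with the ubiquitin-like ISG15, or block the entry and release of viruses. Many of them keep a low level in cells that have met no interferon, through constitutive signaling and through IRF1 and related factors.

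The sequences that tie these genes together are shown first. The core of the response element was searched as 2 copies of GAAA with any 2 bases between them, on both strands, in RefSeq windows of 250 bases before and 50 bases after each annotated start (GRCh38.p14). Of the 44 genes, 36 had a window, and 24 of these 36 (66.7%) held the motif. The same letters occurred in 1195 of all 27305 symbols with a window (4.38%) and in 17 of 30 further interferon-inducible genes (56.7%). Counted by window, the motif was in 28 of 47 windows of the 44 genes (59.6%) and in 1255 of all 35116 windows (3.57%), where nearby starts of one gene can overlap and share a match. A match is a description of these letters and not a measured binding site. The 8 genes without a window were *IRF7*, *DHX58*, *OAS2*, *OASL*, *USP18*, *IFIT2*, *IFITM2* and *MX2*. The 8 stretches below were chosen because their genes carry the results that follow. *ISG15*, *OAS3*, *LGALS3BP* and *IFITM3* were abundant in these cells. *ISG20* had, per kilobase of its merged exons, a level near the median of the genes tested, and *IFIT1*, *HERC5* and *BST2* were close to absent. Each is read 5′ to 3′ on the strand of its gene, with 1 copy of the motif, or of its reverse complement, in capitals.
ISG15: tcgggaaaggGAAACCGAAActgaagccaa
OAS3: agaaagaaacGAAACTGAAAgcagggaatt
LGALS3BP: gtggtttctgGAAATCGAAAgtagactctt
IFITM3: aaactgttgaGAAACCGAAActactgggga
ISG20: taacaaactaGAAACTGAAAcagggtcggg
IFIT1: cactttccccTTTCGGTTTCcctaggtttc
HERC5: aaacattatgTTTCGTTTTCcactggagct
BST2: tcctttctggGAAACTGAAActgaaaacct

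The stretch of *ISG15* lay at chr1:1013380-1013409 on the plus strand, with the motif beginning 107 bases before the RefSeq start. It fell in an intron of a longer transcript of *ISG15* in GENCODE v29 (GRCh38). That of *OAS3* lay at chr12:112938321-112938350 on the plus strand, 143 bases before the start and upstream of the gene in GENCODE v29. The stretches of *LGALS3BP* (chr17:78979962-78979991, minus strand, 58 bases before the start), *IFITM3* (chr11:320876-320905, minus strand, 35 bases) and *ISG20* (chr15:88638937-88638966, plus strand, 69 bases) fell in exons of other transcripts of these genes. Those of *IFIT1* (chr10:89392510-89392539, plus strand, 103 bases), *HERC5* (chr4:88457035-88457064, plus strand, 74 bases) and *BST2* (chr19:17405741-17405770, minus strand, 130 bases) were upstream of the annotated genes. *ISG15* and *IFITM3* thus shared the same 10 letters in capitals, and the capitals of *IFIT1* were their reverse complement. *OAS3*, *ISG20* and *BST2* shared another 10 letters. Among the stretches shown, each sequence occurred in an abundant gene and in a gene close to absent, *IFIT1* for the first and *BST2* for the second. The genes were picked with their levels known, so this follows from the choice and is a description only. The windows of *ISG15*, *OAS3*, *IFITM3*, *IFIT1* and *HERC5* also held copies with other letters, which are not shown.

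The total of the estimated counts was 15706672 to 17948383 per library. Levels are given as CPM, counts scaled to a common library size after TMM normalization, and are divided by the kilobases of merged exons where genes are compared with each other. Merged exons join all annotated transcripts of a gene, for example 7.36 kilobases for *ISG20*. A gene whose transcripts in these cells are shorter is thus placed too low per length, and transcripts were not measured. A floor of 3 counts was 0.166 to 0.192 CPM, depending on the library, and covers counting error only. *PON1* itself had 0, 2 and 3 counts in the NC libraries and 155, 181 and 167 counts in the PON1-OE libraries. The groups did not overlap, and the ratio of the summed counts, set against the library sizes, was 108 (95% counting interval 46.0 to 334, without the spread between libraries). The exact permutation p was 0.1, the smallest that 3 against 3 libraries can give. Of 12 hepatocyte markers 4 were above 1 CPM, led by *HNF4A* with 72.5 to 82.5 CPM. The defining marker *ALB* had 0.250 to 0.762 CPM, and *TTR* and *SERPINA1* stayed at or below 0.111 CPM, so the label of a hepatocyte rests here on few of its markers. The 12 summed to 109 to 115 CPM in NC and 106 to 111 CPM in PON1-OE. Of the 6 tested, 5 were fitted lower in PON1-OE, beside 51.0% of all genes tested. The groups did not overlap for *TF* (20.1 to 23.2 CPM in NC and 17.9 to 19.9 CPM in PON1-OE), 1 of the 6 beside 16.1% of all genes. *APOB*, also lower, had an unadjusted p of 0.0456 (edgeR), 1 of the 6 beside 11.1% of all genes. Of 7 immune cell markers, 4, including *PTPRC*, had no count in any library. The sum of the 7 was 206 to 227 CPM in NC and 224 to 248 CPM in PON1-OE and came almost entirely from *CD68*. *CD68* was the only 1 of the 7 tested and was fitted higher in PON1-OE, with overlapping groups. It had an unadjusted p of 0.0094 (edgeR), beside 5.91% of all genes that were higher with a p under 0.05. The sum of 4 endothelial markers was 21.9 to 24.6 CPM in NC and 25.1 to 27.8 CPM in PON1-OE, from *PECAM1* and *KDR*, and that of 6 fibroblast markers was 15.98 to 20.95 CPM in NC and 16.7 to 20.2 CPM in PON1-OE. Of the 2 endothelial markers tested, both were fitted higher in PON1-OE, beside 5863 of all 11958 genes tested. *PECAM1* was without overlap (12.6 to 13.5 CPM in NC and 13.8 to 15.9 CPM in PON1-OE), beside 8.32% of all genes in this direction, and *KDR* overlapped. None of the markers of these 4 lists that were tested passed an adjusted p of 0.05 in edgeR's quasi-likelihood test, and their part in the results below was not tested.

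The upstream pathway was measured from the ligands to the transcription factors. Of 21 interferon genes, 20, including the interferon beta gene *IFNB1*, had no count in any library. The remaining one, *IFNE*, had 1 count in PON1-OE replicate 2. At this depth interferon mRNA was thus not detectable in either group. All 6 receptor genes were expressed. *IFNAR1* had 58.1, 64.6 and 54.8 CPM in NC and 56.0, 55.1 and 58.5 CPM in PON1-OE, and *IFNAR2* had 34.2, 34.7 and 37.9 CPM in NC and 33.9, 31.8 and 38.0 CPM in PON1-OE. The groups overlapped for both receptor chains. *JAK1* had 202, 197 and 202 CPM in NC and 204, 200.4 and 209.9 CPM in PON1-OE, also with overlapping groups.

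Of 48 inducible genes outside the list, 3 had no count in any library, *CXCL10*, *CXCL11* and *GBP5*, which are strongly induced by interferon gamma. From the same GBP family, *GBP1*, *GBP2* and *GBP3* had means of 29.6, 28.6 and 42.9 CPM over both groups, whereas *GBP4* had 0.547 CPM. *ADAR*, an RNA-editing enzyme, had 735 to 777 CPM.

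**Figure D1:**
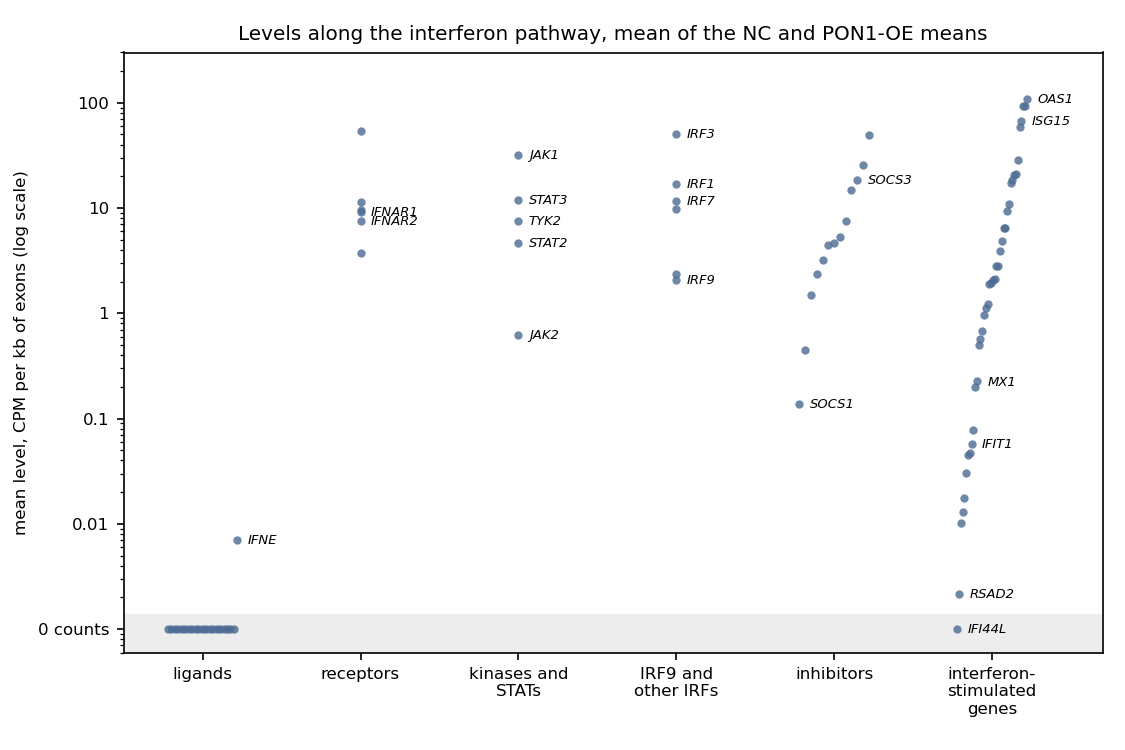
Level of genes along the interferon pathway, as the mean of the NC and PON1-OE means in CPM per kilobase of exons (log scale). Genes are grouped by role on the x axis and sorted within a group, and points in the grey band have no count. Sensors and adaptors other than *IRF3* and *IRF5*, and the further inducible genes, are not shown. The ligands lie at the bottom except *IFNE*, and *JAK1* reaches 32.1 CPM per kilobase. The last group, the interferon-stimulated genes without *STAT2*, *IRF1*, *IRF7* and *IRF9*, spreads from 0 to 109.

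The levels of the 44 genes ranged from no count to a mean of 537 CPM. Averaged over both groups, 8 genes exceeded 100 CPM, 15 lay between 10 and 100 CPM, 10 between 1 and 10 CPM, and 11 were at or under 1 CPM. Per kilobase of exons, 16 of the 44 were above the median of the genes tested (5.53 CPM per kilobase). The highest level per length was that of *OAS1* (109 CPM per kilobase), followed by *LGALS3BP* (93.5), *IFITM3* (92.1), *ISG15* (66.9), *OAS3* (59.0) and *UBE2L6* (28.5). *OAS1* and *OAS3* alone supplied 39.1% of the summed CPM of the 44 genes. At the other end, 6 genes had at most 3 counts in every library, and *IFI44L* had no count at all. Close relatives differed: *IFIT3* was 112 times as high per length as *IFIT1*, *IFITM3* was 48.1 times as high as *IFITM2*, and *MX1* was 12.7 times as high as *MX2*. These ratios are rough, since *IFIT1* and *MX2* had at most 7 counts in a library. *IFITM2* shares exonic bases with *IFITM1* and is similar in sequence to *IFITM3*, so its reads may be misassigned. The median level was 2.10 CPM per kilobase in the 24 genes with the motif, with a range from 0 to 93.5. It was 4.29 CPM per kilobase in the 12 genes without it, with a range from 0.0304 to 109 and *OAS1* at the top. Genes with and without the motif thus covered nearly the same range of levels.

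**Figure D2:**
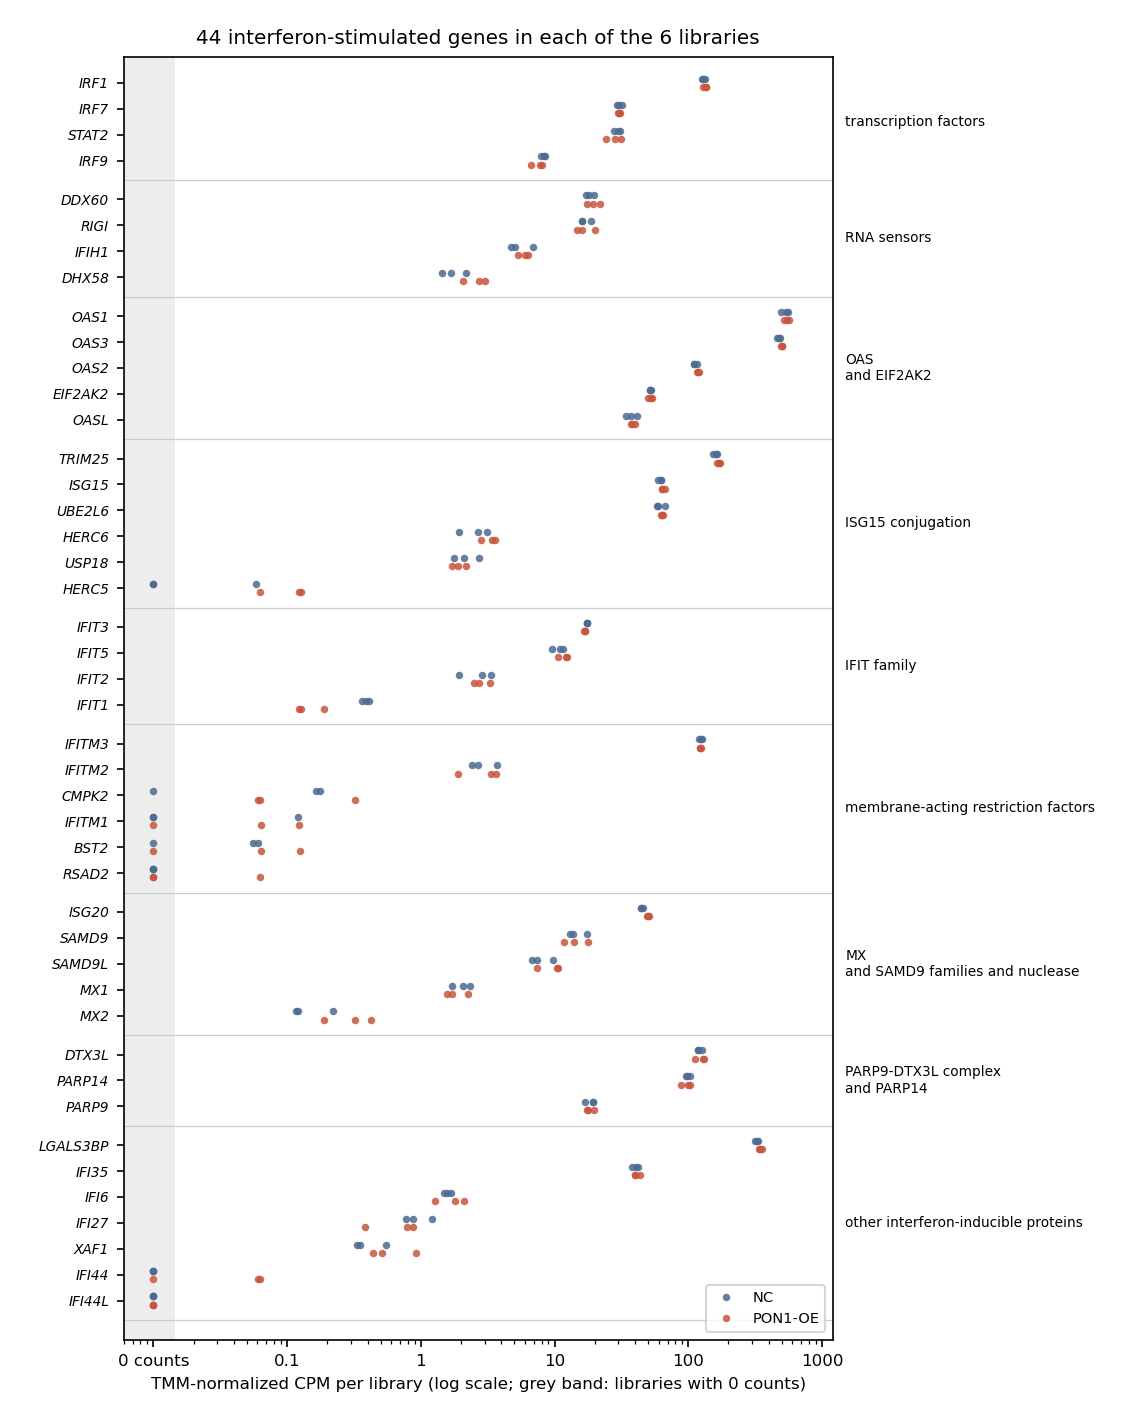
TMM-normalized CPM of the 44 interferon-stimulated genes in each of the 6 libraries (log scale), grouped by role and sorted by level, with NC in blue and PON1-OE in red; points in the grey band are libraries with 0 counts. The 6 points of a gene lie close together in the genes above 10 CPM, and the genes range from no count (*IFI44L*) to a mean of 537 CPM (*OAS1*).

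**Figure D3:**
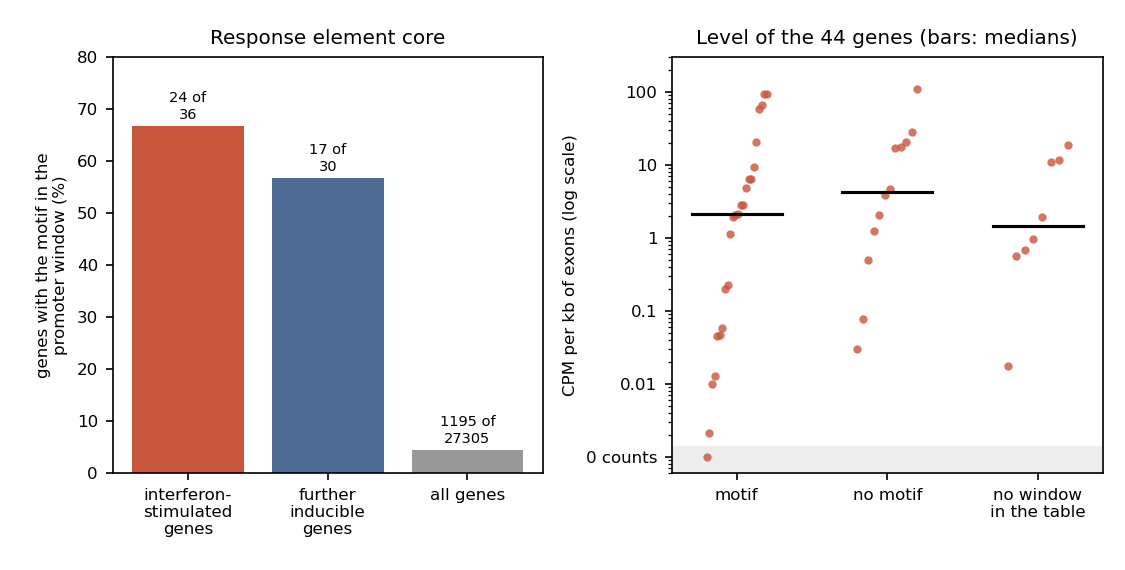
Left: share of genes whose RefSeq promoter window holds 2 copies of GAAA with any 2 bases between them on either strand, in percent, for the 44 genes, the further inducible genes and all genes (66.7%, 56.7% and 4.38%). Right: level of the 44 genes in CPM per kilobase of exons (log scale) by presence of the motif, with bars at the medians of 2.10 with the motif, 4.29 without it and 1.44 where there was no window.

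The comparison of PON1-OE with NC asked whether these genes differed in level with overexpression of *PON1*, in cells that had received a vector in both groups. Of the 44 genes, 34 passed the filter on low counts and were tested. None of the 34 passed an adjusted p of 0.05 (edgeR's quasi-likelihood test, Benjamini-Hochberg), compared with 0.677% of all 11958 genes tested, and none passed it with a change over 1.5-fold (0.0502% of all genes). Without adjustment, 4 of the 34 had a p under 0.05, *LGALS3BP*, *ISG20*, *OAS3* and *DHX58*, compared with 11.1% of all genes. All 4 were higher in PON1-OE, a direction in which 5.91% of all genes had such a p, against 5.17% for the lower direction. DESeq2 gave 3 of 43 members an unadjusted p under 0.05 (5.51% of all genes) and none of the 15 members that received an adjusted p passed it (2.1%). limma-voom gave 4 an unadjusted p under 0.05 (10.9%) and none an adjusted one (0.544%). The groups did not overlap for 6 of the 34 genes, compared with 16.1% of all genes. In 5 of these 6, *LGALS3BP*, *ISG15*, *OAS3*, *OAS2* and *ISG20*, the PON1-OE libraries were the higher ones (8.32% of all genes), and in *IFIT3* they were the lower ones (7.74%). Without regard to direction, 11.8% and 17.6% of the 34 genes were thus close to the shares of all genes tested. Leaving out single libraries gave 2 to 6 genes with an unadjusted p under 0.05, the latter without PON1-OE replicate 2. Only *ISG20* and *LGALS3BP* were left when NC replicate 1 or either of PON1-OE replicates 1 and 3 was dropped, and *ISG20* and *SAMD9L* when NC replicate 2 was dropped. In bulk libraries, a change in RNA per cell and a change in the share of cells that express a gene cannot be told apart.

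The intervals show how small a change could have gone unseen. For 28 of the 34 genes the 95% interval of the fold change lay inside 1.5-fold in both directions, compared with 10293 of all 11958 genes tested. The median half-width on the log2 scale was 0.18 over the 34 genes and 0.16 over all genes. The fitted log2 fold changes ran from -0.47 (*IFI27*) to 0.57 (*DHX58*), with a median of 0.04 against 0.00 over all genes tested. Of the 34, 22 were fitted higher and 12 (35.3%) lower, compared with 51.0% lower among all genes tested, and this difference was not tested. The median size of a log2 fold change without its sign was 0.072 in the 34 genes and 0.070 in all genes. The 6 genes whose interval reached past 1.5-fold, *DHX58*, *HERC6*, *USP18*, *MX1*, *IFI6* and *IFI27*, all had a mean below 10 CPM.

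**Figure D4:**
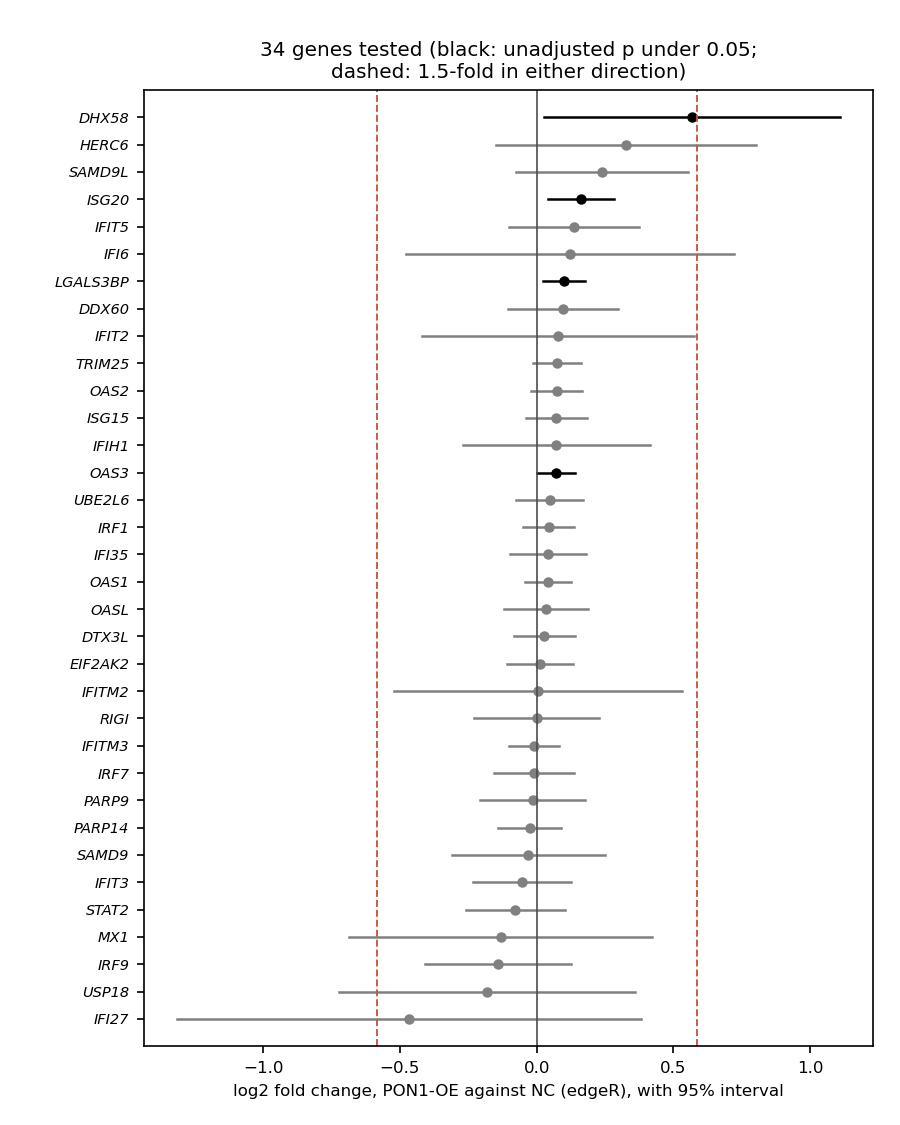
Log2 fold change of PON1-OE against NC for the 34 interferon-stimulated genes tested (edgeR), sorted by size, with 95% intervals; the solid line marks no change, the dashed lines mark 1.5-fold in either direction, and black points have an unadjusted p under 0.05. The intervals of 28 genes lie between the dashed lines, and the widest belongs to *IFI27*.

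Among the transcription factors, *IRF1* was the most abundant. It had 126, 129 and 134 CPM in NC and 128, 137 and 136 CPM in PON1-OE (log2 fold change 0.04, 95% interval -0.05 to 0.14). *IRF7*, the regulator that amplifies the interferon response, had 30.5, 29.5 and 32.0 CPM in NC and 31.1, 29.8 and 30.4 CPM in PON1-OE. The groups overlapped in both. *STAT2* had 27.7, 31.0 and 29.7 CPM in NC and 28.4, 24.1 and 31.3 CPM in PON1-OE, with overlapping groups and a log2 fold change of -0.08 (-0.26 to 0.10). *IRF9* had 8.54, 8.35 and 7.98 CPM in NC and 6.64, 8.13 and 7.79 CPM in PON1-OE, again with overlapping groups. *IRF9* shares exonic bases on its own strand with another gene of the table, and the counting could have split reads between them.

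The RNA sensors were expressed at low to moderate levels. *DHX58*, which encodes LGP2, a helicase that tunes the sensors RIG-I and MDA5, had 1.70, 1.44 and 2.17 CPM in NC and 3.04, 2.06 and 2.74 CPM in PON1-OE. These were 26 to 37 counts in NC and 33 to 50 counts in PON1-OE. PON1-OE replicate 2 lay below NC replicate 3, so the groups overlapped. *DHX58* had the largest fitted change of the 34 genes, a log2 fold change of 0.57 (0.03 to 1.11) with an adjusted p of 0.425 in edgeR. The genes of the sensors themselves, *RIGI* with 14.7 to 19.9 CPM and *IFIH1* with 4.75 to 6.86 CPM over all libraries, overlapped between groups. So did *DDX60*, a related helicase gene, with 17.1 to 21.9 CPM.

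The OAS enzymes make short oligoadenylates that activate RNase L, which degrades viral and cellular RNA, and *OAS1* and *OAS3* had the highest CPM of the 44 genes. *OAS1* had 537, 497 and 555 CPM in NC and 547, 565 and 523 CPM in PON1-OE, with overlapping groups. *OAS3* had 474, 463 and 487 CPM in NC and 499.6, 499 and 498 CPM in PON1-OE. The PON1-OE libraries of *OAS3* were nearly identical and lay above every NC library, by a log2 fold change of 0.07 (0.00 to 0.14, adjusted p = 0.448). *OAS2* had 111, 117 and 110.1 CPM in NC and 118, 117 and 120.5 CPM in PON1-OE. Its groups did not overlap either, although NC replicate 2 and PON1-OE replicate 2 differed by less than 1 CPM. Its log2 fold change was 0.07 (-0.02 to 0.17). *OASL*, which lacks the synthetase activity, had 34.05 to 41.5 CPM, and *EIF2AK2*, which encodes the kinase PKR that stops translation, had 50.3 to 54.0 CPM, with overlapping groups in both. All 5 genes of this group were fitted higher, by 0.01 to 0.07 on the log2 scale, although without NC replicate 2 only 3 of them were and without PON1-OE replicate 1 only 4. Of their 5 intervals, 4 included 0.

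In the ISG15 pathway the modifier and its conjugating enzyme were both abundant. *ISG15* had 59.7, 62.2 and 62.4 CPM in NC and 66.5, 63.6 and 63.6 CPM in PON1-OE. The groups did not overlap, with a gap of about 1 CPM between NC replicate 3 and PON1-OE replicates 2 and 3. The log2 fold change was 0.07 (-0.04 to 0.18, adjusted p = 0.677 in edgeR). *UBE2L6*, the conjugating enzyme, had 59.2, 58.6 and 66.8 CPM in NC and 63.1, 64.4 and 63.4 CPM in PON1-OE, with overlapping groups. *HERC5*, the ligase that transfers ISG15 to its targets, had 0, 0 and 1 count in NC and 2, 1 and 2 counts in PON1-OE, all under the floor. *USP18*, which removes ISG15 again and damps the receptor, had 1.72 to 2.73 CPM, and *HERC6* had 1.94 to 3.56 CPM, with overlapping groups. *TRIM25*, a ubiquitin ligase that acts with RIG-I, was the most abundant gene of this group in CPM, with 154 to 172 CPM, and shares exonic bases with another gene on its strand.

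The IFIT proteins bind viral RNA, and the 4 genes had very different levels. *IFIT3* had 17.4 CPM in each NC library and 16.8, 16.8 and 16.6 CPM in PON1-OE. The groups did not overlap, but the log2 fold change was only -0.05 (-0.23 to 0.13, adjusted p = 0.88 in edgeR). *IFIT2* had 3.33, 1.94 and 2.87 CPM in NC and 2.74, 2.50 and 3.32 CPM in PON1-OE, with overlapping groups, and *IFIT5* had 9.63 to 12.4 CPM over all libraries. *IFIT1*, a widely used readout of interferon signaling, had only 6, 7 and 7 counts in NC and 2, 3 and 2 counts in PON1-OE and was removed by the filter. The PON1-OE counts were all at or under the floor of 3 counts. Every PON1-OE library was lower than every NC library, with a ratio of the summed counts of 0.376. Its 95% counting interval of 0.134 to 0.926 leaves out the spread between libraries. Fitted without the filter, the log2 fold change of *IFIT1* was -1.37 (-2.95 to 0.22), with an adjusted p of 0.613 in edgeR.

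The genes that act at membranes were led by *IFITM3*, which blocks the fusion of entering viruses. It had 126, 120.5 and 128 CPM in NC and 125, 123 and 124 CPM in PON1-OE (log2 fold change -0.01, -0.10 to 0.08). The groups overlapped. *IFITM2* had 1.89 to 3.70 CPM and *IFITM1* 0 to 2 counts. These 2 genes share exonic bases on the same strand, and the IFITM genes are similar in sequence, so the counts of the 3 were also summed. The sum changed by -0.01 (-0.10 to 0.08, adjusted p = 0.963 in edgeR). *BST2*, which tethers budding virus to the cell surface, had at most 2 counts in a library, *RSAD2*, which encodes viperin, had 1 count in PON1-OE replicate 2 and none in the other libraries, and its neighbour *CMPK2* had 0 to 5 counts. *BST2* and *RSAD2* stayed under the floor in both groups.

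Of the MX and SAMD9 families, *MX1*, a GTPase that restricts influenza virus, had 2.06, 2.32 and 1.70 CPM in NC and 1.58, 2.25 and 1.72 CPM in PON1-OE. The groups overlapped, and the interval of the log2 fold change ran from -0.69 to 0.42. *MX2* had 2 to 4 counts in NC and 3 to 7 counts in PON1-OE. *SAMD9* had 11.8 to 17.8 CPM and *SAMD9L* 6.84 to 10.5 CPM, with overlapping groups. *ISG20*, an exonuclease that degrades RNA, had 45.8, 44.3 and 44.3 CPM in NC and 50.2, 49.3 and 50.7 CPM in PON1-OE. The lowest PON1-OE value exceeded the highest NC value, and the gap between the groups was wider than the spread within either. The log2 fold change was 0.16 (0.04 to 0.28, SE 0.059), with an adjusted p of 0.276 in edgeR. In the PARP9 and DTX3L complex, which links ADP-ribosylation to ubiquitination, *DTX3L* had 112 to 130.3 CPM and *PARP9* 16.8 to 19.9 CPM. These 2 genes share exonic bases on opposite strands. *PARP14*, a related enzyme gene, had 88.6 to 103 CPM, and the groups overlapped for all 3.

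Among the other inducible proteins, *LGALS3BP*, a secreted glycoprotein that binds galectins, had 331, 314 and 325 CPM in NC and 343, 358 and 339 CPM in PON1-OE. The groups did not overlap, with NC replicate 1 as the highest control and PON1-OE replicate 3 as the lowest overexpressing library. The log2 fold change was 0.10 (0.02 to 0.18, SE 0.037), with an adjusted p of 0.286 in edgeR. *IFI35* had 37.9 to 43.7 CPM with overlapping groups. *IFI6*, a mitochondrial protein gene, had 1.70, 1.49 and 1.58 CPM in NC and 1.28, 1.81 and 2.11 CPM in PON1-OE. *IFI27* had 1.21, 0.774 and 0.880 CPM in NC and 0.792, 0.875 and 0.383 CPM in PON1-OE. The groups overlapped in both. *XAF1*, a proapoptotic factor, had 6 to 9 counts in NC and 7 to 15 counts in PON1-OE. *IFI44* had 1 count in each of PON1-OE replicates 1 and 2 and none elsewhere.

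Seen library by library, the 34 genes shifted little. The median over the genes of the log2 difference from the NC mean was 0.001, -0.018 and 0.004 in the NC libraries and 0.043, 0.038 and 0.067 in the PON1-OE libraries. The summed level of the 44 genes was 2575, 2509 and 2622 CPM in NC and 2678, 2661 and 2654 CPM in PON1-OE. The PON1-OE libraries were the higher ones on both measures, by less than 0.1 on the log2 scale. Since the sum follows a few abundant genes, it is a description of *OAS1*, *OAS3* and *LGALS3BP* more than of the other members.

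**Figure D5:**
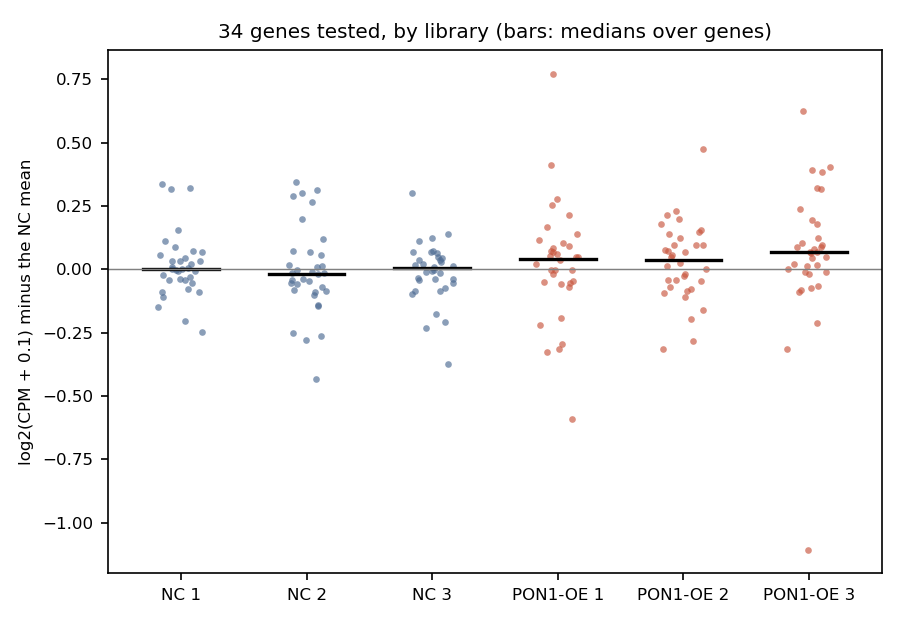
Difference of log2(CPM + 0.1) from the mean of the NC libraries for each of the 34 interferon-stimulated genes tested (points), by library, with bars at the medians over genes. The NC medians are 0.001, -0.018 and 0.004, the PON1-OE medians are 0.043, 0.038 and 0.067, and the points of all 6 libraries overlap.

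The other genes of the pathway were compared in the same way. Of 112 listed, 72 were tested, 38 were fitted higher and 34 lower, and none passed an adjusted p of 0.05 in edgeR. Without adjustment 9 did, a share of 12.5% beside the 11.1% of all genes. Of these 9, 8 were higher in PON1-OE, a direction in which 5.91% of all genes had such a p, against 5.17% for the lower direction. *IFNGR2*, a chain of the interferon gamma receptor, had 150.5, 150.2 and 153 CPM in NC and 167, 157 and 175 CPM in PON1-OE. Its groups did not overlap (log2 fold change 0.14, 0.05 to 0.23, adjusted p = 0.215). *TYK2*, a kinase bound to IFNAR1, had 51.2, 46.0 and 49.3 CPM in NC and 53.5, 55.0 and 53.8 CPM in PON1-OE, also without overlap (0.15, 0.02 to 0.27, adjusted p = 0.351). *IFNGR2* passed the adjusted threshold when PON1-OE replicate 2 was left out (adjusted p = 0.0462) and under none of the other alternatives.

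Among the inhibitors, *PTPN6*, a phosphatase that dampens cytokine receptors, had 14.1, 16.7 and 13.8 CPM in NC and 17.3, 17.6 and 16.98 CPM in PON1-OE, and the groups did not overlap. *PIAS1*, an inhibitor of STAT signaling, was the only one of the 9 that was lower, with 25.6, 26.2 and 30.2 CPM in NC and 25.8, 25.01 and 19.8 CPM in PON1-OE. Its groups overlapped, and the lowest library was PON1-OE replicate 3. Of 37 further inducible genes tested, 5 (13.5%) had an unadjusted p under 0.05, beside the 11.1% of all genes, and the 5 were higher in PON1-OE (5.91% of all genes). *PARP12*, an ADP-ribosyltransferase gene, had 24.5, 22.8 and 26.3 CPM in NC and 28.8, 26.8 and 29.1 CPM in PON1-OE, and *TRIM38*, a ubiquitin ligase gene, had 16.7, 19.7 and 19.2 CPM in NC and 20.4, 23.0 and 20.5 CPM in PON1-OE. Neither gene overlapped between the groups. The DNA sensor gene *IFI16* had 144, 160.0 and 147 CPM in NC and 169, 154 and 173 CPM in PON1-OE, with overlap. The cytidine deaminase genes *APOBEC3B*, with 76.2, 74.8 and 84.0 CPM in NC and 89.9, 84.0 and 86.1 CPM in PON1-OE, and *APOBEC3C*, with 10.2, 10.01 and 11.4 CPM in NC and 13.7, 11.3 and 13.2 CPM in PON1-OE, overlapped narrowly. The adjusted p of these 7 genes was between 0.278 and 0.427 in edgeR. Over the 72 genes the median log2 fold change was 0.01. The groups did not overlap for 9 of the 72 (12.5%, beside the 16.1% of all genes). In 7 of these the PON1-OE libraries were the higher ones (8.32% of all genes), the 5 named above with *IKBKE* and *TRIM21*. In *STAT3* and *TRIM24* they were the lower ones (7.74%).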

How the data were processed

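The authors deposited 1 table of estimated counts per gene, not normalized, for 20381 genes in 6 libraries of HCCLM3 cells, 10.5% of them not whole. Per the submitters' processing notes, Bowtie2 2.2.8, HISAT2, StringTie 1.3.1 and DESeq2 were used. What each did, and on which genome build and annotation, is not given in the sources used here. Columns were assigned to libraries by name. After rounding of the estimated counts, a step that the planned design for whole counts did not need, edgeR 4.0.16 (R 4.3.3) was used: filterByExpr (11958 genes kept), TMM, and the quasi-likelihood test of PON1-OE against NC without covariates, with Benjamini-Hochberg adjustment over all of these genes. Intervals of 95% were taken from the F statistic. Exact permutation tests were two-sided. The fits were tested on simulated data.

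Exon lengths came from GENCODE v29 (GRCh38) and promoter windows from RefSeq (GRCh38.p14). Genes were said to share exons from 50 bases. Alternatives were DESeq2 1.42.0, limma-voom (limma 3.58.1), RLE size factors, a filter of 10 counts per library or no filter, the omission of single libraries, a block for the replicate number, summed IFITM counts and, added after seeing the data, counts not rounded. Libraries of a group differed by more than sampling noise (chi-square per degree of freedom 2.11 to 4.11), so none was counted as a copy. The list of members, whose rule uses no measured value, and the roles, the pathway and marker lists and the tests were all chosen with earlier results of these data known. Members given with values by library were those with an unadjusted p under 0.05, those whose groups do not overlap, the 6 highest per length and a set of named regulators and readouts. Of the pathway lists, they were a set of named genes and those with an unadjusted p under 0.05. *ADAR*, *STAT3*, *TRIM24*, *IKBKE*, *TRIM21*, the marker genes, *CXCL10*, *CXCL11*, the GBP genes and the range-only genes were named after their values were seen. Of the genes that these rules cover, 1 is not reported here.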

Additional observations from a re-analysis of the deposited data

How the results depend on the processing

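The number of members with an adjusted p under 0.05 stayed at 0 under all 13 alternatives (DESeq2 gave an adjusted p to 15 of the members), and the lowest adjusted p of a member under any of them was 0.193. The number with an unadjusted p under 0.05 was 4 as reported, 3 without the filter and in DESeq2, and 2 to 6 when 1 library was left out. It was 2 without NC replicate 1 or 2 and without PON1-OE replicate 1 or 3, and 6 without PON1-OE replicate 2. *ISG20* had such a p under each of the 13 alternatives, *LGALS3BP* under 12, *DHX58* under 8 and *OAS3* under 7. Members without overlap between groups numbered 6 to 12 with 1 library left out, 10 without NC replicate 2 or 3 and 12 without PON1-OE replicate 2. The share of all genes without overlap in these fits was 23.9% to 29.5%, up from 16.1%, since groups of fewer libraries overlap less often by construction. Without the filter it was 8 of 43 members, *IFIT1* and *HERC5* added, beside 13.9% of all genes. Pathway genes with an unadjusted p under 0.05 numbered 9 as reported, 5 in DESeq2, and 3 to 12 with 1 library left out (5 without NC replicate 2, 3 without PON1-OE replicate 3). With an adjusted p under 0.05 they numbered 0 to 1 in the same fits, the 1 being *IFNGR2* without PON1-OE replicate 2.

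The median log2 fold change of the members was 0.04 as reported, 0.072 in DESeq2 and 0.071 without the filter, which both cover members with low counts, and 0.023 to 0.063 with 1 library left out. It was 0.023 without NC replicate 1, 0.063 without NC replicate 3, and 0.056 and 0.025 when PON1-OE replicates 1 and 3 were omitted. Of the 34 members tested, 16 changed sign under some alternative. With 1 library left out, the log2 fold change ran from -0.17 to 0.017 for *STAT2*, from -0.038 to 0.023 for *IRF7*, from -0.0029 to 0.076 for *OAS1*, from -0.12 to 0.25 for *IFIT2*, from -0.034 to 0.0089 for *IFITM3* and from -0.041 to 0.30 for *IFI6*. It ran from -0.12 to 0.0021 for *IFNAR1* and from -0.12 to 0.013 for *IFNAR2*. The cause of these shifts was not tested.

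Libraries with the same replicate number did not deviate together more than other pairs did. The correlations of their deviations from the group means were 0.017, -0.023 and 0.020, beside -0.094 to 0.071 for the other pairs. The number was therefore treated as a name, and whether such libraries shared a culture or batch was not tested. With the replicate number as a block, 3 members (*DHX58*, *ISG20* and *LGALS3BP*) and 9 pathway genes had an unadjusted p under 0.05, none an adjusted one, the median log2 fold change of the members was 0.042, and that of *PON1* was 6.66. DESeq2 gave *PON1* no adjusted p. *PON1* was not kept with at least 10 counts in every library. Depth limits the 10 members not tested and the 6 whose intervals reach past 1.5-fold.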
